A study of Mus musculus with 22 samples.

Results

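The 10 genes described here are markers of skeletal muscle fibres: Ckm and Acta1, which all skeletal fibres use, the myosin heavy chains Myh1, Myh2, Myh4 and Myh7, and the troponin subunits Tnni1, Tnni2, Tnnt1 and Tnnt3. They were taken by gene symbol from the platform annotation of an expression array study of mouse white fat, and all 10 were measured, with 1 array feature each, among 19337 genes. The 22 arrays came from male C57BL/6J mice whose bone marrow had been replaced. After 6 weeks of reconstitution the mice were fed a high-fat diet, with 60% of its calories from fat, for 14 weeks. Inguinal subcutaneous fat (ingWAT) or epididymal fat (epiWAT) was then removed and frozen. The donor marrow lacked both Gipr, the receptor of the gut hormone GIP, and S100a9 (double-knockout marrow), lacked Gipr alone (Gipr-/- marrow), or was wild type (WT marrow). Recipients were WT for Gipr-/- and WT marrow. For double-knockout marrow the sources used here give no recipient. The ingWAT arrays numbered 3 for double-knockout marrow, 3 for Gipr-/- marrow and 4 for WT marrow. Each kind of marrow had 4 epiWAT arrays.

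Skeletal fibres are classed by the myosin heavy chain they use. Slow fibres use Myh7, are rich in mitochondria and myoglobin and resist fatigue. Fast fibres use Myh2 (type IIa, the most oxidative), Myh1 (type IIx) or Myh4 (type IIb, the fastest and most glycolytic), and limb muscle of the mouse is dominated by the fast types. Troponin, which makes the thin filament respond to calcium, also comes in both kinds: Tnni2 and Tnnt3 encode the fast troponin I and T, and Tnni1 and Tnnt1 the slow ones. Ckm is the muscle creatine kinase, which buffers ATP, and Acta1 is the actin of the skeletal thin filament. Adipose tissue contains no skeletal fibres of its own, but the inguinal pad lies against muscle of the flank and thigh and under the skin.

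Promoter sequences are shown for 4 members, the pan-fibre genes Ckm and Acta1 and the fast myosins Myh4 and Myh2, since the first 3 moved together across the ingWAT arrays and Myh2 did not follow them as closely. They are from RefSeq on GRCm38.p6, cover 250 bases before to 50 after the gene start, and are written 5′ to 3′ on the gene's strand. Capitals mark the E-box letters CANNTG, the core bound by myogenic bHLH factors, and the TATA box letters TATAAA, searched on both strands.
Ckm, chr7:19410844-19411143, plus strand: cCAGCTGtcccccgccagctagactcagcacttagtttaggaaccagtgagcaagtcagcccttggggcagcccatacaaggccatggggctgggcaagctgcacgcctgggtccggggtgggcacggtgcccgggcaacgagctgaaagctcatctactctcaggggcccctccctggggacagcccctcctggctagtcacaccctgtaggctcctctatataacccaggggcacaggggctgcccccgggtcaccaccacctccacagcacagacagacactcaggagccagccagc
Acta1, chr8:123894726-123895025, minus strand: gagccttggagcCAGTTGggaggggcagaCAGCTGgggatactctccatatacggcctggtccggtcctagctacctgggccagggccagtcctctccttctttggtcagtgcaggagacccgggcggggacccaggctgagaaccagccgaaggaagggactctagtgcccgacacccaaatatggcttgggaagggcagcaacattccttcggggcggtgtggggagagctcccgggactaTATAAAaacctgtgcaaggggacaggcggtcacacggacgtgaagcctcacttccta
Myh4, chr11:67237562-67237861, plus strand: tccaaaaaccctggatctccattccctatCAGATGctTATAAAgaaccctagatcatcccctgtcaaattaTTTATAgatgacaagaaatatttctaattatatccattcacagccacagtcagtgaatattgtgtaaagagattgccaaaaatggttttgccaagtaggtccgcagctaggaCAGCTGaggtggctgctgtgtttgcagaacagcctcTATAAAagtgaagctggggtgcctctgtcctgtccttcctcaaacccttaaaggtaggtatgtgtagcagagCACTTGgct
Myh2, chr11:67170777-67171076, plus strand: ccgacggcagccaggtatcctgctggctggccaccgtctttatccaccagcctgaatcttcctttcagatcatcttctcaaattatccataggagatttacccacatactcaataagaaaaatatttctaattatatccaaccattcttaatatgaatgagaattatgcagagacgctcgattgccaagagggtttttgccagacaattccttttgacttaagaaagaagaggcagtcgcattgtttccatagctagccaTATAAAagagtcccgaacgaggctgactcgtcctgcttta

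In these windows CANNTG occurred 1 time for Ckm, 2 times for Acta1, 3 times for Myh4 and 0 times for Myh2. TATAAA occurred 0 times for Ckm, 1 time for Acta1, 3 times for Myh4 and 1 time for Myh2, and no match overlapped another. Promoter windows were at hand for 8 members, 10 windows in all, and not for Tnni2 and Tnnt3. CANNTG was in 8 of the 10 windows and in 72.3% of all 32851 mouse promoter windows of this length. TATAAA was in 5 of the 10, against 13.6% of all windows. The 10-letter MEF2-type motif, searched on both strands, was in 0 of the 10 and in 0.557% of all windows. A match of these letters is a description of the sequence and not a bound site. The 3 fast myosin genes lie side by side on chromosome 11, in the order Myh2 (67171027-67197517), Myh1 (67200102-67224577) and Myh4 (67237812-67260447). Tnni2 (142441816-142444410) and Tnnt3 (142498771-142516213) are near neighbours on chromosome 7, which also holds Ckm (19411094-19421583) and Tnnt1 (4504569-4515975). Acta1 lies on chromosome 8 (123891758-123894775), Myh7 on chromosome 14 (54970684-54994626) and Tnni1 on chromosome 1 (135783033-135810989), all as gene bounds in RefSeq on GRCm38.p6.

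The labelled tissue carried its marker in every array: Adipoq, the adiponectin gene of fat cells, ranged from 18.64 to 19.37 in the ingWAT arrays, and its lowest epiWAT value was 17.996. All values are the deposited ones, read as log2. Over all features they ran from 1.92 to 19.9, and array medians lay between 6.11 and 6.54. Arrays carry no read depth, so their number limits the precision. Nothing in the labels ties each array to a mouse of its own, so p-values refer to the spread among arrays, which may be technical. The titles end in a code whose meaning the labels do not give. In ingWAT the codes fall in 2 stretches, TF64 to TF75 (7 arrays: 3 double-knockout, 1 Gipr-/- and 3 WT) and TF87 to TF92 (3 arrays: Gipr-/- 1, Gipr-/- 2 and WT 4). The epiWAT codes run from TF49 to TF60, so depot and code cannot be told apart. The stretch in ingWAT is given with the marrow comparisons because Ckm, Acta1, Myh4, Tnni2 and Tnnt3 ran lower in the later arrays, with overlap. Not all members did so: Myh7 and Tnnt1 had their highest ingWAT values there (4.84 and 8.88). Myh1 was 4.84 to 8.87 in the later arrays and 4.75 to 12.43 in the earlier ones.

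Fast-fibre transcripts differed widely between inguinal pads. The mean of the 18 fast-fibre genes outside the members was 7.20 in double-knockout 3, 7.13 in Gipr-/- 1 and 6.90 in WT 4, near the highest epiWAT array (7.055), and 15.46 in WT 3. Myh4, the type IIb myosin, had values of 16.05, 18.47 and 9.26 for double-knockout, 8.61, 9.33 and 13.87 for Gipr-/- and 17.85, 19.03, 19.56 and 4.73 for WT marrow. WT 1, WT 2, WT 3 and double-knockout 2 were highest, WT 4 was lowest of all 10, and the groups overlapped, with double-knockout 2 above WT 1 and double-knockout 3 within the Gipr-/- range. The range of 14.83 log2 units was the second widest (rank 2) among 19337 genes over these arrays. In WT 3 the value lay just under the highest of any feature on that array (19.65), so differences among the highest arrays are read near the top of the scale.

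Acta1, the skeletal actin, followed nearly the same order, with 13.74, 17.19 and 8.21 for double-knockout, 9.08, 11.49 and 13.50 for Gipr-/- and 16.17, 17.85, 18.91 and 6.77 for WT marrow. Ckm had 9.89, 13.87 and 7.80 for double-knockout, 8.57, 8.88 and 10.27 for Gipr-/- and 11.71, 14.61, 17.16 and 7.58 for WT marrow. Both were highest in WT 3 and lowest in WT 4, and in both the 3 groups overlapped. These probes measure bulk tissue, in which fewer fibres and less RNA per fibre cannot be told apart.

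The fast troponins behaved in the same way. Tnni2, the inhibitory subunit of fast fibres, had 9.83, 14.38 and 6.03 for double-knockout, 5.88, 7.16 and 9.90 for Gipr-/- and 12.73, 14.58, 17.48 and 5.10 for WT marrow. Tnnt3, the fast subunit that binds tropomyosin, had 12.07, 15.65 and 8.10 for double-knockout, 7.15, 9.82 and 10.69 for Gipr-/- and 14.53, 17.04, 18.19 and 6.67 for WT marrow. WT 3 was highest and WT 4 lowest for each, and 3 WT arrays and double-knockout 2 stood above every Gipr-/- array. The groups overlapped, since double-knockout 2 lay above WT 1 and double-knockout 3 within the Gipr-/- range. Across the 10 ingWAT arrays the pairwise Pearson r among Ckm, Acta1, Myh4, Tnni2 and Tnnt3 lay between 0.881 and 0.988, as a description of arrays that share a normalization.

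**Figure D1:**
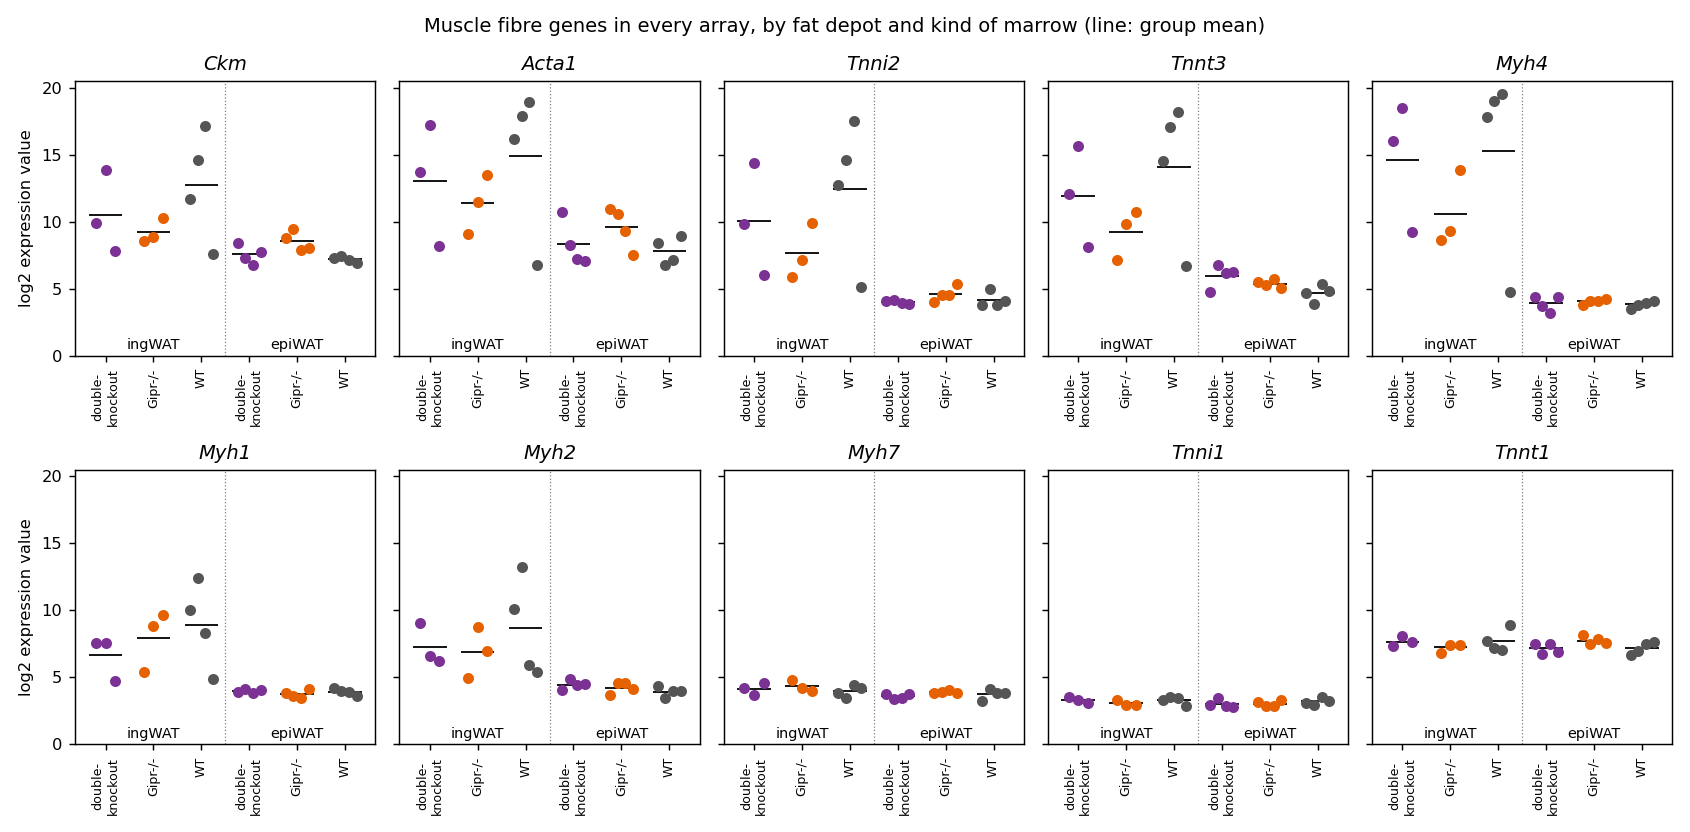
Log2 expression value (vertical axis) of each member in every array, by fat depot and kind of marrow; points are arrays and the line is the group mean. Myh4, Acta1, Ckm, Tnni2 and Tnnt3 spread widely in ingWAT and less in epiWAT, where Acta1 still spans 4.21, Tnnt3 2.86 and Ckm 2.71. The ingWAT ranges of Tnnt1 (2.04), Myh7 (1.40) and Tnni1 (0.65) are narrower than those of the other 7 members.

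The other fast myosins did not peak in the same pad. Myh1, the type IIx myosin, had 7.58, 7.57 and 4.75 for double-knockout, 5.37, 8.87 and 9.67 for Gipr-/- and 10.02, 12.43, 8.34 and 4.84 for WT marrow. Myh2, the type IIa myosin, had 9.08, 6.61 and 6.19 for double-knockout, 4.98, 8.72 and 6.95 for Gipr-/- and 10.07, 13.23, 5.94 and 5.43 for WT marrow. Both were highest in WT 2. In WT 3, where Myh4, Acta1, Ckm, Tnni2 and Tnnt3 were highest, Myh2 was 5.94, below 8.72 in Gipr-/- 2. Myh1 or Myh2 correlated with those 5 genes at r between 0.319 and 0.765 over the 10 arrays. Likewise, double-knockout 2 was high in Myh4 (18.47) but not in Myh2 (6.61), and double-knockout 1 had the lower Myh4 (16.05) with the higher Myh2 (9.08).

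Some genes of slow and oxidative fibres were also higher in WT 2 than in WT 3, and others were not. Mybpc1, the slow-type myosin-binding protein C, was 13.42 in WT 2 against 9.09 in WT 3. Over the epiWAT arrays Mybpc1 ran from 4.34 to 13.21 while Myh2 reached at most 4.91, so Mybpc1 can be high without Myh2. Mb, the oxygen store myoglobin, was 12.69 in WT 2 against 8.85 in WT 3, and Myoz2, a Z-disc protein of slow fibres, was 7.87 against 5.25. Of the 15 slow-fibre genes outside the members 12 were higher in WT 2 (median difference 0.33), but of the 14 muscle energy genes only 1 was (median -1.43). Cox6a2 and Cox8b, muscle subunits of cytochrome oxidase, differed by -2.97 and -2.85 between WT 2 and WT 3, Smyd1, a sarcomere assembly factor, by -3.64 and the slow myosin Myh7 by -1.03. Of the 18 fast-fibre genes 16 were higher in WT 3: Pvalb, the calcium-binding parvalbumin of fast fibres, was 16.69 in WT 2 against 19.14 in WT 3, and Actn3, the fast Z-disc actinin, was 13.69 against 16.57. With 1 array each this is a difference between samples and has no replicate check. Of the 10 genes most like Myh2 over the ingWAT arrays, 2 (Myoz2, r = 0.894, and Mybpc1, r = 0.884) were on a muscle list, against 9 of the 10 most like Myh4.

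**Figure D2:**
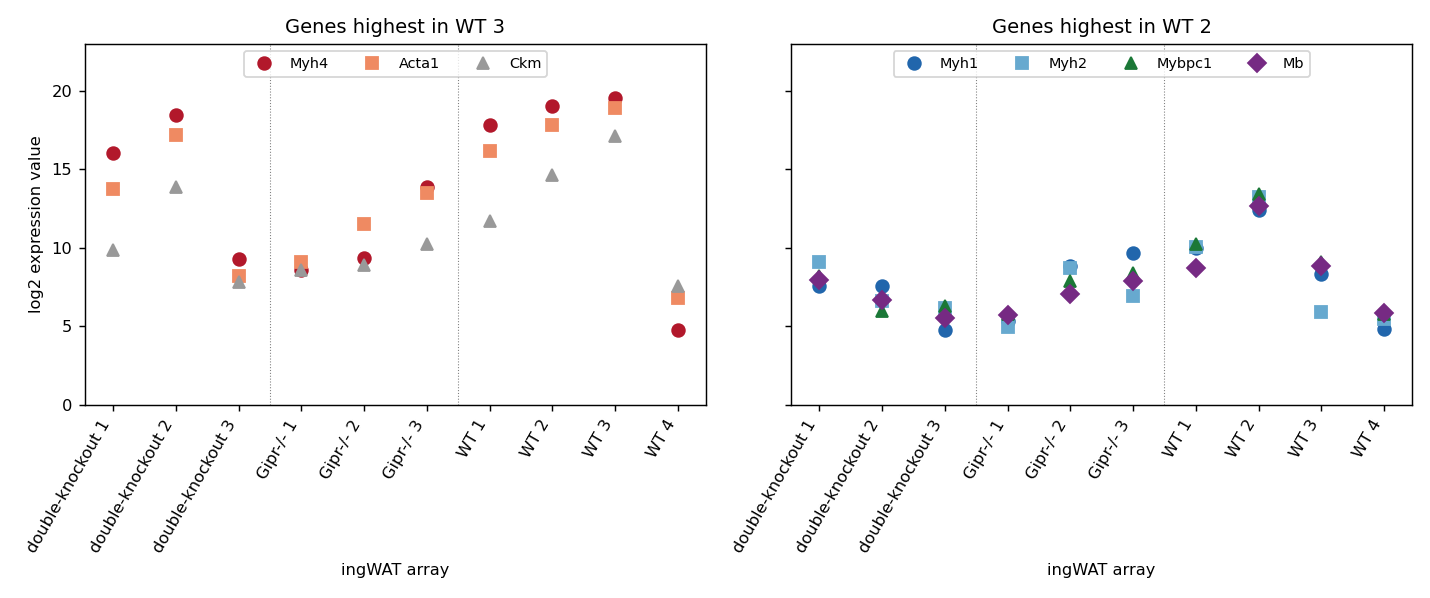
Log2 expression value (vertical axis) in each of the 10 ingWAT arrays (horizontal axis, by kind of marrow) for Myh4, Acta1 and Ckm on the left and for Myh1, Myh2, Mybpc1 and Mb on the right. The left-hand genes peak in WT 3 and the right-hand genes in WT 2; levels of different genes are not comparable.

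The slow members spanned narrower ranges in ingWAT than the other 7. Myh7, the slow myosin, ranged from 3.43 to 4.84 in ingWAT, and Tnni1, the slow troponin I, from 2.89 to 3.54; neither passed the ingWAT filter, which left out the 25% of genes with the lowest mean. Tnnt1, the slow troponin T, had 7.31, 8.06 and 7.63 for double-knockout, 6.84, 7.44 and 7.42 for Gipr-/- and 7.72, 7.22, 7.06 and 8.88 for WT marrow. Its highest ingWAT value was in WT 4, the array lowest in Myh4, Acta1, Ckm, Tnni2 and Tnnt3. When each gene was centred on its own ingWAT mean, the average of the 5 fast members (3 myosins and 2 troponins) spanned 9.91 log2 units over the arrays, against 0.59 for the 3 slow members, which did not move together: singly they spanned 2.04 (Tnnt1), 1.40 (Myh7) and 0.65 (Tnni1). The fast-minus-slow value ran from -5.31 in WT 4 to 5.18 in WT 2, and over epiWAT its whole range was 1.08. With the troponins alone the highest array was WT 3 (6.83, against 4.68 in WT 2). A slow gene at the bottom of the scale may also be one the probes detect poorly, which was not tested.

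Outside the members, the genes most like the members' mean over the 10 ingWAT arrays were Atp2a1, the calcium pump of fast fibres (r = 0.993), Myh8 (r = 0.986), Pygm, the muscle glycogen phosphorylase (r = 0.98), the giant sarcomere proteins Ttn (r = 0.973) and Neb (r = 0.968), Myl1 (r = 0.972), Myot (r = 0.97), Pvalb (r = 0.97), Mylpf (r = 0.967) and Klhl31 (r = 0.943). An r of 0.9 or more was reached by 11 of 18 fast-fibre genes outside the members, 4 of 19 sarcomere genes, 3 of 14 muscle energy genes and 1 of 14 slow-fibre genes, beside 38 of all 14502 genes tested (0.262%). Myh8, the neonatal myosin, had 13.93, 16.94 and 8.14 for double-knockout, 7.88, 10.16 and 12.52 for Gipr-/- and 16.54, 17.61, 19.22 and 4.50 for WT marrow, the order of Myh4. Myh3, the embryonic myosin, stayed between 3.15 and 4.04. The skeletal myosin genes are close in sequence, as are the actins, and shared probe signal between Myh8 and Myh4, or Acta1 and other actins, was not tested.

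Markers of muscle precursors stayed low in the same pads. Myod1 and Pax7, which mark activated myoblasts and satellite cells, ranged over the ingWAT arrays from 3.27 to 4.84 and from 3.19 to 4.16. WT 3 was highest for both. Myf6, the regulator kept on in adult fibres, was 9.32 in WT 3 and 6.37 in WT 2, and Musk, the receptor of the neuromuscular junction, was 7.89 in WT 3 and 5.20 in WT 2.

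Genes of other neighbouring tissues also differed between these pads. Krt5 and Krt14, keratins of the basal skin layer, were high in double-knockout 2 (10.68 and 10.92), WT 1 (9.69 and 9.01) and WT 2 (11.35 and 11.15) but not in WT 3 (5.59 and 5.502), the array highest in Acta1. Over the 14 measured skin and gland genes the mean was 4.63 to 7.46 with double-knockout, 4.56 to 6.15 with Gipr-/- and 4.85 to 7.47 with WT marrow. Cd79a, a B cell gene, was 12.78 in double-knockout 1 and 11.92 in double-knockout 3, and at most 5.96 in the other 8 ingWAT arrays. The mean of the 13 adipocyte genes kept within 16.71 and 16.96. The part of these tissues in the members' values was not tested.

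Differences between kinds of marrow in ingWAT did not exceed the spread between arrays by the test. With Gipr-/- against WT marrow, 0 of 8 tested members passed limma's test at an adjusted p of 0.05 (0 at an unadjusted p of 0.05), where 0.234% of all genes were called. The estimates were negative for all 8, at -4.89 for Tnnt3 (SE 2.40, adjusted p = 0.364), -4.83 for Tnni2 (SE 2.51, adjusted p = 0.397) and -4.69 for Myh4 (SE 3.24, adjusted p = 0.546). The 95% interval for Myh4 ran from -11.76 to 2.37, which includes 0. The 18 fast-fibre genes outside the members had a median difference of -4.37 with 0 called, beside a median of 0.03 over all genes.

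With double-knockout against Gipr-/- marrow, 0 of 8 tested members passed limma's test (0 at an unadjusted p of 0.05), where 3.48% of all genes were called. Myh4 differed by 3.99 (SE 3.46, adjusted p = 0.619), Tnnt3 by 2.72 and Acta1 by 1.69. With double-knockout against WT marrow, 0 of 8 were called (0 at an unadjusted p of 0.05), where 0% of all genes were called and 1958 genes had an unadjusted p under 0.05. Myh4 differed by -0.70 (SE 3.24, adjusted p = 0.954) and Ckm by -2.25 (SE 1.89, adjusted p = 0.666). The comparisons share arrays. WT 4 moved the comparison of Gipr-/- with WT marrow by more than 1.5 times: without it Myh4 differed by -8.21 (adjusted p = 0.0723).

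These estimates moved with the stretch of title codes. In the later stretch the Gipr-/- arrays had Myh4 at 8.61 and 9.33, above 4.73 in WT 4, whereas in the earlier stretch Gipr-/- 3 had 13.87, below all 3 WT arrays. Of the earlier 7 arrays, the lowest Myh4 value was 9.26 in double-knockout 3, and the 3 later arrays reached at most 9.33. With the stretch as a block, Myh4 differed by -0.63 between Gipr-/- and WT marrow (adjusted p = 0.954), by -2.52 between double-knockout and Gipr-/- marrow (adjusted p = 0.739) and by -3.14 between double-knockout and WT marrow (adjusted p = 0.562). Acta1 turned as well in the second of these, to -3.16 (adjusted p = 0.637). Without the 3 later arrays, Myh4 differed by -4.22 between double-knockout and WT marrow (adjusted p = 0.436), and Myh1 differed by -3.63 (adjusted p = 0.325). None of the members was called in any of these fits.

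Inguinal fat had more fast-fibre transcript than epididymal fat. Averaged over the 3 kinds of marrow, 7 of 8 tested members were higher in ingWAT by limma's test, where 5.4% of all genes were called higher. Of these 7, Myh1, Myh2, Myh4 and Tnni2 lay below the epiWAT filter limit of 4.33 and passed the filter through ingWAT alone, so the count is a description of these genes. With no filter, 7 of all 10 members were called higher, beside 4.75% of 19337 genes, and Myh7 (0.41, adjusted p = 0.0913) and Tnni1 (0.14, adjusted p = 0.45) were not. Myh4 averaged 13.50 in ingWAT and 3.92 in epiWAT, a difference of 9.58 (SE 1.42, adjusted p = 0.000419). Its epiWAT values lie near the bottom of the scale and its highest ingWAT values near the top, so the true difference may be larger. The files give no detection call. Tnnt3 was higher by 6.42 (SE 1.07), Tnni2 by 5.83 (SE 1.11) and Acta1 by 4.54 (SE 1.24). Myh1 was higher by 3.96, Myh2 by 3.41 and Ckm by 3.08, with adjusted p of 0.00116, 0.00551 and 0.0235 in that order. Tnnt1 differed by 0.18 (adjusted p = 0.594), with a 95% interval from -0.26 to 0.62. Myh7 averaged 4.16 in ingWAT and 3.75 in epiWAT, and Tnni1 averaged 3.22 in ingWAT and 3.09 in epiWAT.

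Every ingWAT array lay above every epiWAT array for Myh1, Myh2 and Myh4, 3 members, a pattern seen in 0.165% of the genes tested and in 0.134% of all 19337. All 3 lie below the epiWAT filter limit, and nothing is read from their share. WT 4, the ingWAT array with the lowest mean of the members, had Myh4 at 4.73 against at most 4.38 in epiWAT, a margin smaller than the range within epiWAT. For Tnni2 and Tnnt3, 9 of 10 ingWAT arrays lay above the highest epiWAT array, for Acta1 7, for Ckm 6, for Myh7 6, for Tnnt1 1 and for Tnni1 0. The fit joins the wide ingWAT spread with a narrow epiWAT one (Myh4 SD 5.31 over 10 ingWAT arrays and 0.36 over 12 epiWAT arrays), so its SE describes neither depot alone. Without the 4 ingWAT arrays highest in the members, which were chosen by their values, 5 members were called, with Myh4 at 5.41 (adjusted p = 0.00356) and Acta1 at 1.13 (adjusted p = 0.455) and Ckm at 0.80 (adjusted p = 0.208) no longer called. Without Gipr-/- 3 alone, Ckm and Acta1 also missed the threshold (adjusted p = 0.0539 and 0.0568).

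**Figure D3:**
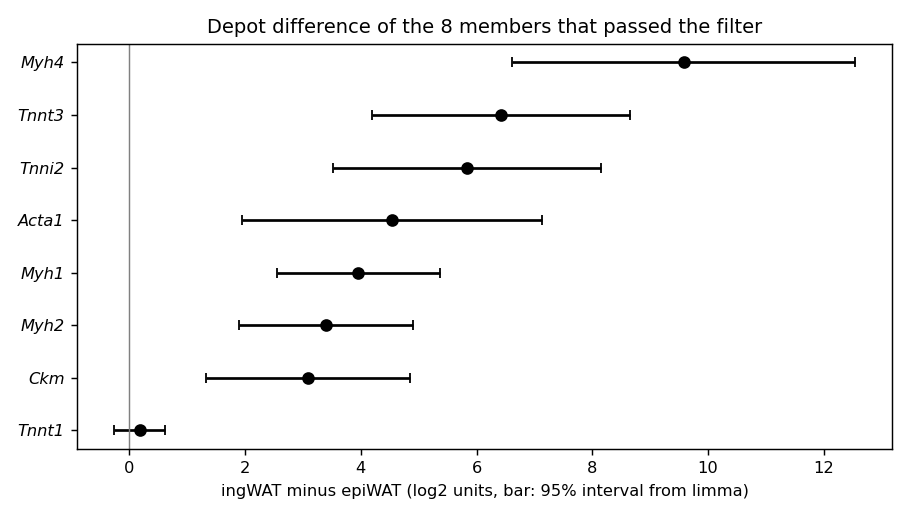
Difference between ingWAT and epiWAT, averaged over the 3 kinds of marrow, in log2 units (horizontal axis) for the 8 members that passed the filter; points are limma estimates and bars their 95% intervals. Myh4 has the highest estimate, 9.58, and the interval of Tnnt1 includes 0.

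Within single kinds of marrow the calls were uneven. With double-knockout marrow 1 of 8 members was higher (1.71% of genes called higher), Myh4 by 10.69 (SE 2.52, adjusted p = 0.0232). At an unadjusted p of 0.05 by the same test there were 6 members and 3075 genes. Myh1, Myh2, Myh4 and Tnni2 lie below the epiWAT filter limit and passed the filter through ingWAT alone. The counts for each kind of marrow are therefore descriptions. With Gipr-/- marrow 0 of 8 were called (0.359% of genes called higher), with Myh4 at 6.56 (adjusted p = 0.223) and Myh1 at 4.24 (adjusted p = 0.11). Here 2 members and 2190 genes had an unadjusted p under 0.05. With WT marrow 6 of 8 were higher (1.03% of genes called higher), 4 of them (Myh1, Myh2, Myh4 and Tnni2) below the epiWAT filter limit. Myh4 stood at 11.48 (adjusted p = 0.0168), Tnnt3 at 9.43 (adjusted p = 0.0103) and Tnni2 at 8.32 (adjusted p = 0.0233), while Acta1 stood at 7.13 (adjusted p = 0.0746). An unadjusted p under 0.05 was reached by 7 members and 2410 genes. The WT count fell to 1 without ingWAT WT 1 or WT 2, to 2 without WT 3 or any one epiWAT WT array, and to 0 without the 4 highest arrays. The double-knockout count was 0 without ingWAT double-knockout 1, ingWAT double-knockout 2 or epiWAT double-knockout 3 and 3 without ingWAT WT 4, and the Gipr-/- count was 1 without ingWAT WT 4.

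The kinds of marrow were not shown to differ in this depot effect. The difference between depots in the Gipr-/- minus WT contrast was called for 0 of 8 members (0% of all genes called; 3 members and 1153 genes at an unadjusted p of 0.05). Myh4 stood at -4.92 (SE 3.44, adjusted p = 0.776) and Tnnt3 at -5.59 (SE 2.58, adjusted p = 0.608). For the double-knockout minus Gipr-/- contrast it was called for 0 of 8 members (0.717% of all genes called; 0 members at an unadjusted p of 0.05), with Myh4 at 4.14 (SE 3.57, adjusted p = 0.678).

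Many other skeletal muscle genes were also higher in ingWAT, averaged over the kinds of marrow. Of 18 fast-fibre genes outside the members 13 were higher in ingWAT and 0 lower, beside 5.4% of all genes called higher. Their median difference was 3.01, beside -0.02 over all genes. Only 12 of the 18 passed the epiWAT filter. The others passed through ingWAT alone, so the count is a description of these genes. Atp2a1 was higher by 7.94, the myosin light chain Mylpf by 5.98, Pvalb by 5.42 and Myl1 by 4.18. Of 13 tested slow-fibre genes 3 were higher, Csrp3 by 1.42, the slow light chain Myl3 by 0.75 and the slow troponin C gene Tnnc1 by 0.64. Csrp3 had an epiWAT median of 3.68, against a filter limit there of 4.33, so its call is a description too. Atp2a2, the calcium pump of slow and smooth muscle, had a difference of -0.88 and was called lower. The slow list's median was 0.44.

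Over all genes 5.4% were called higher, the share to set beside each count of higher genes here. Of 19 sarcomere genes 14 were higher and 0 lower, with Ttn at 5.66, Neb at 4.40 and Myot, a Z-disc protein, at 4.21 (median 1.82). Only 11 of the 19 passed the epiWAT filter, so this count too is a description. Of 14 calcium and excitation genes 6 were higher, among them Trdn (2.54), a protein of the calcium release unit, and Cacna1s (2.27), the voltage sensor of the fibre membrane (median 1.17). Of 13 energy genes 7 were higher, among them Cox6a2 (3.31), a muscle subunit of cytochrome oxidase, and Mb (1.82), while Ldhd was called lower at -2.30 (median 1.01). Only 12 calcium and excitation genes and 12 energy genes passed the epiWAT filter. Cacna1s had an epiWAT median of 3.82, against a filter limit there of 4.33, so both counts are descriptions too. Myh8 was higher by 8.01. Of 7 tested myogenic regulators and satellite cell markers 1 was higher, Mef2c by 1.29, a factor also used in other cell types. Smooth muscle genes ran the other way, 0 of 9 higher and 6 lower (7.55% of all genes called lower), with a median of -2.37. Other cell types moved between the depots too. Brown and beige fat genes were higher for 6 of 8 (median 1.23), but Cox7a1 and Cox8b on that list are also on the muscle energy list. Cox7a1 had r = 0.803 with the members' mean over the ingWAT arrays, and Cox8b 0.561. Schwann cell genes were higher for 3 of 6 (median 0.58) and adipocyte genes for 3 of 13 (median 0.49). Only 5 Schwann cell genes passed the epiWAT filter, so that count is a description. Macrophage genes were lower for 6 of 9 (median -0.94). Their part in the members' difference was not tested.

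In epididymal fat the fast myosins and Tnni2 stayed low: over the 12 arrays Myh1, Myh2, Myh4 and Tnni2 ranged from 3.17 to 5.32, and none passed the filter. The filter kept Ckm, Acta1, Tnnt1 and Tnnt3. Acta1 had 10.76, 8.27, 7.20 and 7.09 for double-knockout, 10.94, 10.54, 9.31 and 7.55 for Gipr-/- and 8.40, 6.73, 7.10 and 8.95 for WT marrow. Ckm had 8.44, 7.31, 6.75 and 7.73 for double-knockout, 8.76, 9.46, 7.87 and 8.003 for Gipr-/- and 7.26, 7.47, 7.11 and 6.94 for WT marrow. Acta1 and Ckm were highest in Gipr-/- 1, Gipr-/- 2 and double-knockout 1. Every Gipr-/- array lay above every WT array for Ckm, and the groups overlapped for Acta1. The share of all genes separated in this way was not counted, and nothing is read from the Ckm pattern.

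Those 3 arrays were also the ones rich in smooth muscle genes. Cnn1, the smooth muscle calponin, had 17.87, 10.18, 10.30 and 6.80 for double-knockout, 18.15, 18.16, 9.32 and 13.17 for Gipr-/- and 10.32, 10.23, 9.26 and 11.23 for WT marrow. The mean of the 10 smooth muscle genes was 14.63 in double-knockout 1, 14.78 in Gipr-/- 1 and 15.20 in Gipr-/- 2, and 8.86 to 12.22 in the other 9 arrays. Over the 12 arrays the median r of the smooth muscle genes was 0.795 with Acta1 and 0.793 with Ckm, as a description of points that share a normalization. Casq1, the calcium store protein of fast fibres, was also high there (10.25 in double-knockout 1, 9.91 and 10.83 in Gipr-/- 1 and 2), while Myh4 was 4.35, 3.75 and 4.10 in the same arrays. Genes of the epididymis averaged 12.53 in double-knockout 1 and germ cell genes 13.21 in Gipr-/- 1. The part of these tissues in the Acta1 and Ckm values was not tested.

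**Figure D4:**
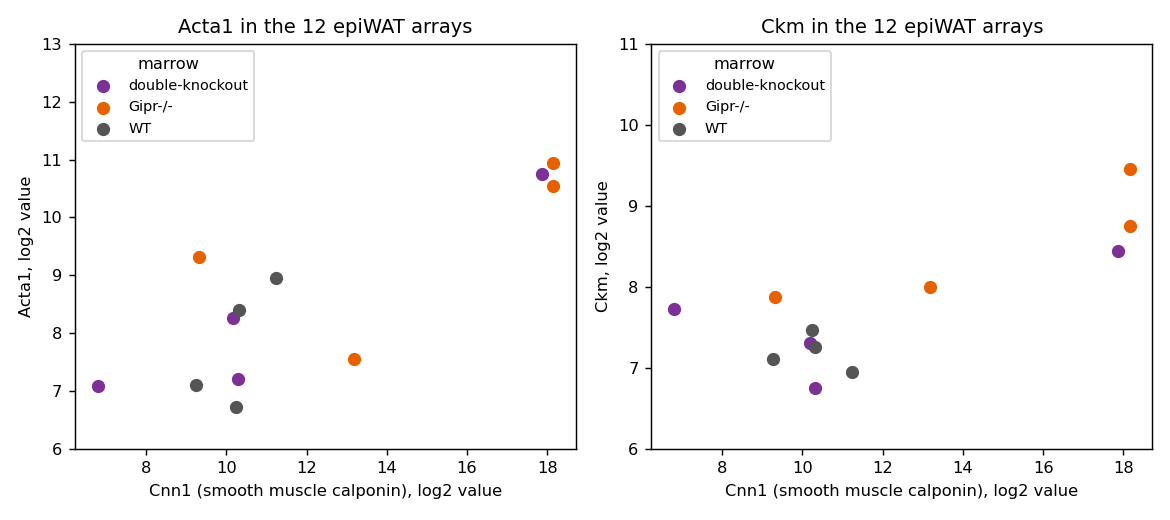
Acta1 (left) and Ckm (right) against Cnn1, all as log2 expression values, in the 12 epiWAT arrays, coloured by kind of marrow; each point is an array. The 3 arrays with Cnn1 near 18 have the highest Acta1 and Ckm values.

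None of the 4 members tested in epiWAT differed between kinds of marrow by limma's test, where 0% of genes were called in each contrast. The other members did not pass the filter and were not tested. Ckm differed by 1.33 between Gipr-/- and WT marrow (SE 0.40, unadjusted p = 0.00659, adjusted p = 0.554; 1 of 4 members and 1052 genes at an unadjusted p of 0.05). It differed by -0.97 between double-knockout and Gipr-/- marrow (SE 0.40, adjusted p = 0.414; 1 of 4 members and 1555 genes at an unadjusted p of 0.05). Without the 3 arrays rich in smooth muscle genes these differences were 0.74 (adjusted p = 0.721) and -0.68 (adjusted p = 0.646). Those 3 arrays were also the highest in Ckm, so leaving them out lowers the Gipr-/- mean of Ckm in any case.

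Tnnt3 had 4.74, 6.73, 6.18 and 6.23 for double-knockout, 5.47, 5.27, 5.74 and 5.04 for Gipr-/- and 4.66, 3.87, 5.33 and 4.84 for WT marrow, with 3 of the 4 double-knockout arrays above every WT array. How many of all genes separate to this degree was not counted, and nothing is read from the pattern. The difference between double-knockout and WT marrow was 1.29 (SE 0.42, unadjusted p = 0.0094, adjusted p = 0.999; 1 of 4 members and 444 genes at an unadjusted p of 0.05). Unlike Acta1 and Ckm, Tnnt3 was lowest in the double-knockout array rich in smooth muscle genes. The genes most like the members' mean over the 12 epiWAT arrays were Prune2 (r = 0.963), Spc25 (r = 0.9), Ppp1cb (r = 0.896), Fst (r = 0.895), Gcnt4 (r = 0.895), Plcb4 (r = 0.894), Ddx21 (r = 0.894), Hspb6 (r = 0.891), Klhl38 (r = 0.885) and Gpm6b (r = 0.884), and 0 of the 10 were on a skeletal muscle list used here. That mean takes in all 10 members, of which only 4 passed the epiWAT filter. The members did not move together there: r among Ckm, Acta1, Myh4, Tnni2 and Tnnt3 ran from -0.364 to 0.731.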

How the data were processed

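RNA of 22 white fat samples was labelled from 100 ng each and hybridised to 1-colour Affymetrix whole-transcript arrays, per the labels' protocols. The authors deposited 1 value per feature and array for 21793 features, read here as log2 values because they run from 1.92 to 19.9. The sources used here name no log base and no normalization. Partek 6.6 is among the tools, per the submitters' processing notes, and its role is not given. The platform annotation gave 1 symbol to 19341 features and left 2452 unnamed here. For 4 genes with several features the one with the higher mean was kept, which left 19337 genes.

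Each depot was fitted apart in R 4.3.3 by the lmFit function of limma 3.58.1, its 3 groups in 1 fit, with variances moderated by eBayes along a trend on mean level. A fit of all 22 arrays in 6 groups served the comparisons between depots. The 25% of genes with the lowest mean were left out of each fit, which left 14502, and p-values were two-sided and adjusted by the Benjamini-Hochberg method over all of them, with a threshold of 0.05. Of the 10 members, 8 passed in ingWAT, 4 in epiWAT and 8 over all arrays. The fit was also run on simulated data, with genes drawn independently and the same spread in every group. The members' spread differs between depots and several move together, so that run does not check the fit for them.

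All members are named. From the other lists, genes past the threshold or with the smallest p between depots may be named, as may the 10 genes with the highest Pearson r with the mean of the centred members. Other single genes and the genes most like Myh4 and Myh2 were chosen after their values were seen. The members and lists were chosen with earlier results of these data known. Array numbers follow accession order and pair nothing. Alternatives were no filter, a filter of 50%, quantile normalization, median centring, array weights, robust moderation without a trend, 1 fit for both depots and leaving out each array. The stretch of title codes, the arrays rich in smooth muscle genes, the arrays highest in the members and the counts of all 10 members with no filter were added after seeing the data.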

Additional observations from a re-analysis of the deposited data

Results flagged for a closer look

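Among 40 pairs of a member and a group of 4 arrays, 2 had 1 array set apart from the other 3 by a gap past the critical value for its size, and chance alone flags about 1 in 20 groups. Myh4 in ingWAT with WT marrow was 4.73 in WT 4, against 17.85 to 19.56 in the other 3 arrays, a gap of 0.884 of the group's range. Tnni1, the slow troponin I, in epiWAT with double-knockout marrow was 3.48 in double-knockout 2, against 2.8 to 2.9 in the other 3 arrays, a gap of 0.852 of a range that lies below the filter's limit. Groups of 3 arrays were not tested.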

How the results depend on the processing

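No paired analysis was possible because the labels give the groups no shared replicate numbers. The count of members called between depots over all marrows (main count 7) stayed within 5 to 7 under every setting run, with 5 under the 50% filter. With array weights the number of members called between depots was 1 for Gipr-/- marrow. Without the 4 ingWAT arrays highest in the members it was 4 for double-knockout marrow and 0 for WT marrow, where 1 WT array remained and was assumed to vary like the others, and Acta1 turned to -1.02. Without the 3 ingWAT arrays with later title codes it was 3 for double-knockout marrow. Leaving out 1 array at a time gave 0 to 3 members called for double-knockout, 0 to 1 for Gipr-/- and 1 to 7 for WT marrow. With the stretch of title codes as a block, the double-knockout minus Gipr-/- differences in ingWAT changed sign to -1.65 for Ckm, -3.16 for Acta1, -1.14 for Myh2, -2.52 for Myh4, -2.10 for Tnni2 and -1.47 for Tnnt3. Under the same block, Myh1 for Gipr-/- minus WT became 0.76 and Tnnt1 for double-knockout minus WT 0.12. Without the later arrays Tnnt1 became 0.081 for Gipr-/- minus WT and 0.33 for double-knockout minus WT, and Acta1 -0.46 for double-knockout minus Gipr-/-. In epiWAT, Acta1 for double-knockout minus WT became -0.060 with array weights and -0.27 without the 3 arrays high in smooth muscle genes. Leaving out 1 array at a time, differences that crossed 0 in ingWAT ran from -0.39 to 4.11 for Acta1, -0.40 to 2.64 for Ckm and -0.54 to 1.33 for Myh2 in double-knockout minus Gipr-/-. In double-knockout minus WT they ran from -4.60 to 0.54 for Acta1, -2.45 to 0.15 for Myh2, -4.22 to 1.96 for Myh4 and -0.28 to 0.33 for Tnnt1, and in Gipr-/- minus WT from -2.29 to 0.36 for Myh1. In epiWAT double-knockout minus WT they ran from -0.27 to 0.95 for Acta1 and -0.19 to 0.15 for Tnnt1. For the dependence on depot they ran from -2.11 to 0.55 for Myh1 (Gipr-/- minus WT) and -0.76 to 1.11 for Myh2 (double-knockout minus Gipr-/-). None of the values that changed sign passed the threshold in either fit, and the cause was not tested.

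Median centring moved the median of all genes most for the depot difference with Gipr-/- marrow, to 0.164 against 0.018 as deposited, where Myh4 differed by 6.56 as deposited. The number of all genes called moved by more than 1.5 times across settings. In ingWAT it was 505 for double-knockout minus Gipr-/- (0 to 1797 under other settings, 49 to 1382 leaving out 1 array), 34 for Gipr-/- minus WT (0 to 401, and 0 to 274) and 0 for double-knockout minus WT (0 to 555, and 0 to 620). Between depots it was 568 with double-knockout marrow (410 to 1187, and 96 to 862), 89 with Gipr-/- marrow (5 to 623, and 2 to 225), 286 with WT marrow (10 to 791, and 81 to 373) and 1878 over all marrows (960 to 2436, and 1108 to 2283).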
